A study of Mus musculus with 11 samples.

Results

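Peroxisomal beta-oxidation was followed through 8 genes in the gonadal white adipose tissue (WAT) of mice on a high fat diet (HFD). The genes were listed by the function of their products, with earlier results of these data already known. All 8 were among the 12787 genes of the deposited table. They encode transporters that carry fatty acids into the peroxisome (Abcd2, Abcd3), enzymes of the oxidation spiral (Ehhadh, Hsd17b4, Acaa1a, Scp2), an acyltransferase that prepares shortened chains for export (Crot) and a racemase that makes branched chains fit for oxidation (Amacr). Messenger RNA libraries were made from 11 C57Bl6/J mice. Control mice (HFD, n = 5) received the 60% HFD with vehicle for 20 weeks, and treated mice (HFD + IMC, n = 6) received the same diet with 0.06% w/w iodomethylcholine (IMC), a small molecule that blocks the bacterial enzyme that releases trimethylamine from choline. The mice were male, and no transgene or deletion is named for either group. Elsewhere in the study, mice on this diet for 20 weeks began it at 6 weeks of age, and the age of the sequenced mice is not stated separately. The study had planned 6 vehicle-treated mice, and 1 library did not pass the quality control of the authors. The question was how the level of each gene's RNA differed between the 2 groups.

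Peroxisomes shorten fatty acids that mitochondria handle poorly, such as very long chains, branched chains and dicarboxylic acids. An ABC transporter brings the acyl-CoA across the membrane, an oxidase makes the first double bond and releases hydrogen peroxide, a multifunctional enzyme hydrates and dehydrogenates the chain, and a thiolase cuts off acetyl-CoA or propionyl-CoA. The shortened chain then leaves as a carnitine ester and is finished in mitochondria, and several of these genes are known targets of PPAR nuclear receptors.

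Each mouse gave 1 library with between 22320022 and 25155366 reads on the listed genes, and no sequencing batch is named in the labels. Values are log2 CPM, the log2 of a gene's reads after each library was scaled by its upper quartile, so a difference of 1 is a doubling. Of the 12787 genes, 40.9% differed between the groups (limma trend, Benjamini-Hochberg adjusted p under 0.05), with 20% higher and 21.0% lower in IMC-treated mice. The median log2 fold change over all genes was −0.03. In a bulk tissue sample, fewer cells of a type and less RNA per cell cannot be told apart.

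IMC-treated mice had more RNA of 6 of the 8 genes (against 20% of all genes), and none of the 8 was lower. Abcd2, Ehhadh, Scp2, Hsd17b4, Amacr and Abcd3 rose by between 1.18-fold and 1.83-fold, while Acaa1a and Crot did not pass the test. The median log2 fold change of the 8 genes was 0.40. For 4 of the 8 (Abcd2, Abcd3, Hsd17b4 and Scp2), every IMC-treated mouse lay above every HFD mouse, a pattern seen in 12.5% of all genes. Together the 8 genes accounted for 942 ± 67.5 CPM in HFD mice (SD, n = 5) and 1360 ± 81.5 CPM in IMC-treated mice (SD, n = 6). The lowest sum in an IMC-treated mouse, 1273 CPM, was above the highest in an HFD mouse, 1046 CPM.

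**Figure D1:**
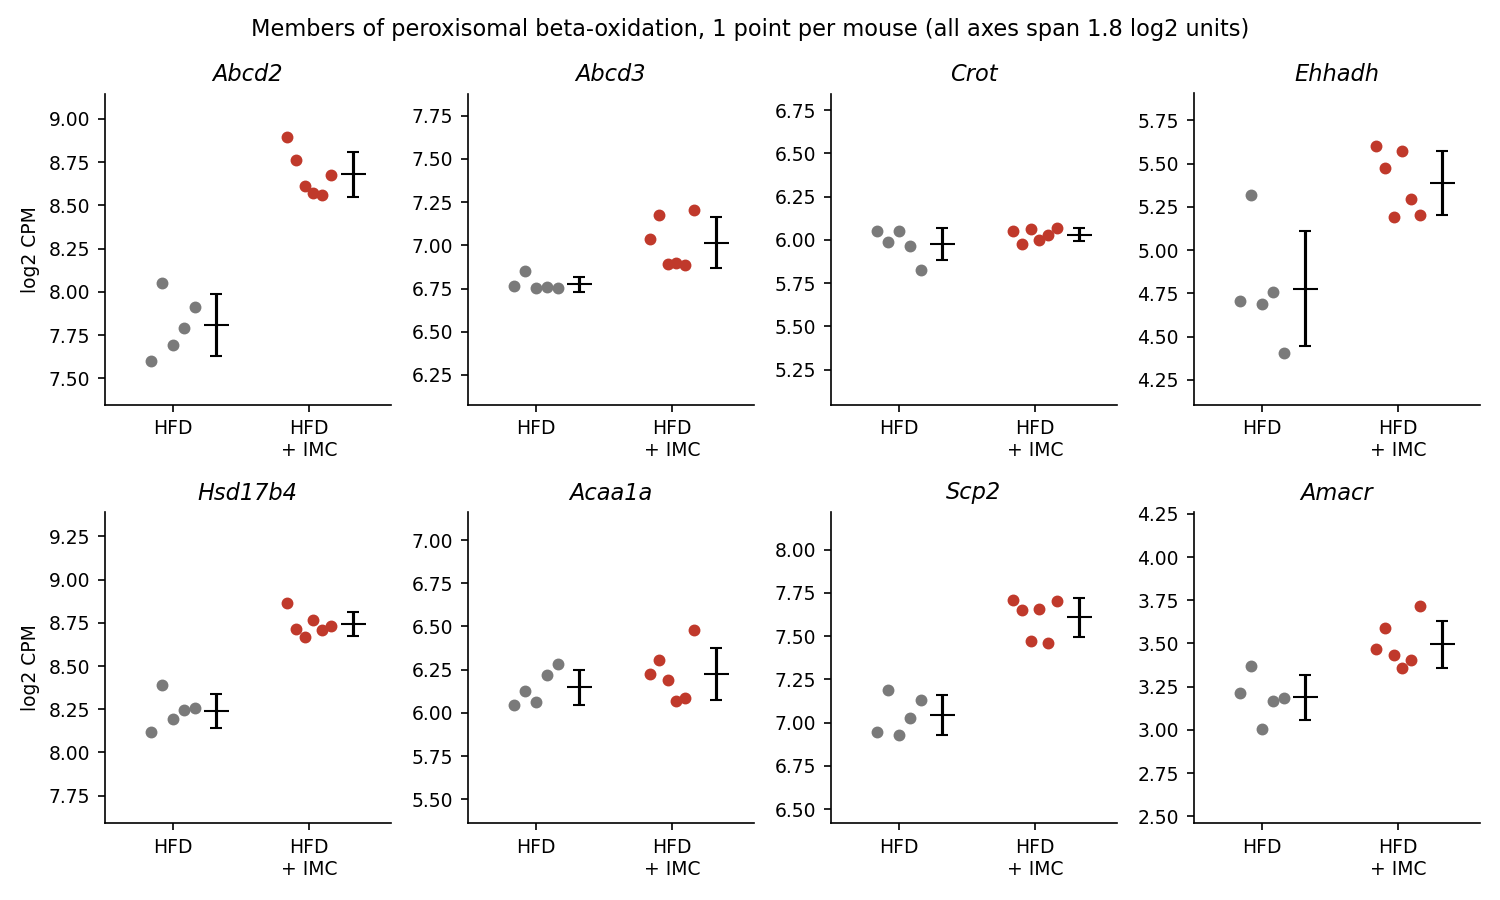
Level of each of the 8 genes in log2 CPM (y axis) in every HFD mouse (grey, n = 5) and IMC-treated mouse (red, n = 6), with the mean and SD beside the points. Each axis spans 1.8 log2 units around its own middle, and the groups do not overlap for Abcd2, Abcd3, Hsd17b4 and Scp2.

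Abcd2 and Abcd3 encode ABC transporters of the peroxisomal membrane, which import very long-chain acyl-CoA and, for Abcd3, also branched-chain and dicarboxylic acyl-CoA. Abcd2 (chr15:91145871-91191799, minus strand, GRCm38) was at 7.60, 8.05, 7.69, 7.79 and 7.91 log2 CPM in HFD mice 1 to 5, and ranged from 8.56 to 8.90 with a median of 8.65 in IMC-treated mice. The lowest IMC-treated mouse was clearly above the highest HFD mouse, mouse 2. The log2 fold change was 0.87 (SE 0.08), a 1.83-fold difference with a 95% interval of 1.61 to 2.08 (limma, Benjamini-Hochberg adjusted p = 3.22e-05). Among all genes, 97.2% had a smaller absolute log2 fold change. Abcd3 (chr3:121758774-121815302, minus strand) was at 6.76, 6.85, 6.75, 6.76 and 6.75 log2 CPM in HFD mice 1 to 5, and between 6.89 and 7.21 in IMC-treated mice, with a median of 6.97. The groups again did not overlap, but the gap between them was narrow, and 3 of the 6 IMC-treated mice lay close to HFD mouse 2. Abcd3 rose by 0.24 on the log2 scale (SE 0.07), or 1.18-fold with an interval of 1.07 to 1.30 (limma, Benjamini-Hochberg adjusted p = 0.0103).

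Ehhadh and Hsd17b4 encode the multifunctional enzymes that carry out the hydratase and dehydrogenase steps. The product of Ehhadh acts mainly on straight chains and dicarboxylic acids, and the product of Hsd17b4 also handles branched chains and bile acid precursors. Ehhadh (chr16:21761287-21787807, minus strand) was at 4.71, 5.32, 4.69, 4.76 and 4.41 log2 CPM in HFD mice 1 to 5, against 5.19 to 5.60 with a median of 5.38 in IMC-treated mice. Only HFD mouse 2 reached the range of the IMC-treated mice, and HFD mouse 5 was the lowest. Ehhadh was 1.53-fold higher with IMC (interval 1.25 to 1.88), a log2 fold change of 0.61 with the widest error of the 8 genes (SE 0.14, limma, Benjamini-Hochberg adjusted p = 0.00324). Without HFD mouse 2 the log2 fold change of Ehhadh was 0.75, the highest value when 1 mouse was left out. Hsd17b4 (chr18:50128201-50196269, plus strand) was at 8.12, 8.39, 8.20, 8.24 and 8.26 log2 CPM in HFD mice 1 to 5. In IMC-treated mice Hsd17b4 ranged from 8.67 to 8.87 with a median of 8.72, above every HFD mouse. Its log2 fold change was 0.50 (SE 0.05), a 1.41-fold rise with an interval of 1.30 to 1.53 (limma, Benjamini-Hochberg adjusted p = 4.00e-05).

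Acaa1a and Scp2 encode the thiolases of the last step, and the Scp2 gene also gives rise to a shorter sterol carrier protein without thiolase activity. The values are per gene, so the RNAs for the long and the short Scp2 product are counted together. Scp2 (chr4:108043839-108144998, minus strand) was at 6.95, 7.19, 6.93, 7.03 and 7.13 log2 CPM in HFD mice 1 to 5, and between 7.46 and 7.71 in IMC-treated mice, with a median of 7.65. Every IMC-treated mouse was above HFD mouse 2, the highest of its group. The rise was 1.48-fold (interval 1.34 to 1.63), or 0.57 on the log2 scale (SE 0.06, limma, Benjamini-Hochberg adjusted p = 5.18e-05). Acaa1a (chr9:119339676-119350299, plus strand) was at 6.05, 6.13, 6.06, 6.22 and 6.28 log2 CPM in HFD mice 1 to 5, against 6.07 to 6.48 with a median of 6.21 in IMC-treated mice. The groups lay over each other, and only IMC mouse 6 stood clearly above the HFD range. The difference in Acaa1a was 0.08 on the log2 scale (SE 0.07, limma, Benjamini-Hochberg adjusted p = 0.420), with a 95% interval of 0.946-fold to 1.18-fold. Acaa1a has a near-identical copy, Acaa1b, so reads could have been split between them or dropped. Acaa1b was counted as higher in IMC-treated mice, by 0.47 on the log2 scale (SE 0.10, limma, Benjamini-Hochberg adjusted p = 0.00261). Acaa1a also overlaps Myd88 on the opposite strand, and Scp2 overlaps Podn on its own strand. Myd88 was lower in IMC-treated mice (log2 fold change −0.30, limma, Benjamini-Hochberg adjusted p = 0.00130), Podn was at 0.15 without passing the test (adjusted p = 0.265), and the strand setting of the count was not given in the sources used here.

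Crot encodes carnitine octanoyltransferase, which converts medium-chain products of peroxisomal oxidation to carnitine esters. Crot (chr5:8966033-8997324, minus strand) was at 6.05, 5.99, 6.05, 5.97 and 5.83 log2 CPM in HFD mice 1 to 5, and between 5.97 and 6.07 with a median of 6.04 in IMC-treated mice. All mice but HFD mouse 5 lay within or at the edge of this narrow range. The difference was 0.05 (SE 0.05, limma, Benjamini-Hochberg adjusted p = 0.388), and its 95% interval, 0.967-fold to 1.11-fold, leaves out a rise of the size seen for Abcd2, Ehhadh, Scp2 or Hsd17b4. Amacr encodes the racemase that turns branched chains of the R form into the S form that the oxidase accepts. Amacr (chr15:10981756-10996626, plus strand) was at 3.21, 3.37, 3.01, 3.17 and 3.18 log2 CPM in HFD mice 1 to 5, against 3.36 to 3.72 with a median of 3.45 in IMC-treated mice. The groups met at a single point, where HFD mouse 2 was level with the lowest IMC-treated mouse. Amacr rose 1.24-fold (interval 1.09 to 1.41), a log2 fold change of 0.31 (SE 0.09, limma, Benjamini-Hochberg adjusted p = 0.0126). It was the least abundant member, with 191 reads in the library that had fewest, while Abcd2 reached 10925 reads.

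The DNA just before the start of 2 genes that rose (Scp2, Ehhadh) and of 2 that did not pass the test (Acaa1a, Crot) is shown so that members that differed in response can be set side by side. Sequences are the 250 bases before the start of each gene in RefSeq for GRCm38.p6, written 5′ to 3′ on the strand of the gene. These starts can differ from the ends of the gene regions given above. The windows of Scp2 and Acaa1a lie inside those regions, and that of Crot lies partly inside. For Scp2, transcripts that begin further upstream are not covered. Of the 8 members, 5 were matched in the promoter table, the fifth being Abcd3. Capitals mark the motifs searched on both strands, namely AGGTCA, the core bound by many nuclear receptors, GGGCGG, the GC box, CCAAT, the CCAAT box, and AGGNCANAGGNCA, a pair of such cores spaced by 1 base as in PPAR response elements. The windows are chr4:108118548-108118797 for Scp2, chr16:21787835-21788084 for Ehhadh, chr9:119341044-119341293 for Acaa1a and chr5:8997147-8997396 for Crot.
Scp2: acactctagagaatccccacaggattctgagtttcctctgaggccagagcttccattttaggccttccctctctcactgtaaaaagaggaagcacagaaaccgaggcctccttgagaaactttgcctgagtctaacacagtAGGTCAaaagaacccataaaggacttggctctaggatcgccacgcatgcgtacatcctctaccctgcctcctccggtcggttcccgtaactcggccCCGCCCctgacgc
Ehhadh: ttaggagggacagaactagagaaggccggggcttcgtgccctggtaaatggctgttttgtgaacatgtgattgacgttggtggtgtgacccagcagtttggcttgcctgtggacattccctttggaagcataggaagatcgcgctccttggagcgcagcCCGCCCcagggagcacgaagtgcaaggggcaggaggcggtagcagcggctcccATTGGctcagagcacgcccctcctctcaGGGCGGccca
Acaa1a: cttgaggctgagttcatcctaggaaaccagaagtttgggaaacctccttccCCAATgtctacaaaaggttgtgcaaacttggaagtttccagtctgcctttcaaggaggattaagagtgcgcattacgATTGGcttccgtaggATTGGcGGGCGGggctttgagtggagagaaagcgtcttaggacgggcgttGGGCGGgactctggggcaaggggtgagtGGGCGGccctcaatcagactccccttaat
Crot: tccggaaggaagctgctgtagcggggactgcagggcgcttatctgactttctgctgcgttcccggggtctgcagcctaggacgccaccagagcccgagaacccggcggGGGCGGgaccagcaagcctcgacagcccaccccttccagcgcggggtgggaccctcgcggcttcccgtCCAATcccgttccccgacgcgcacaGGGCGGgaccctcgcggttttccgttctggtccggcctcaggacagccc
The Scp2 window held the only AGGTCA of the 5 genes, from 109 to 104 bases before the start, and AGGTCA was found in 14% of 32851 promoter windows of this length. GGGCGG, present in 32.7% of windows, occurred 3 times before Acaa1a, 2 times before Ehhadh and Crot and 1 time before Scp2. CCAAT, present in 33.8% of windows, occurred 3 times before Acaa1a and 1 time before Ehhadh and Crot. AGGNCANAGGNCA, present in 0.338% of windows, was in none of the 5 genes' windows, and neither window of Abcd3 held any of the 4 motifs. GGGCGG thus stood before all 4 genes shown, those that rose and those that did not pass the test.

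Levels were compared between genes after division by the length of their merged exons. These exons come from all GENCODE transcripts of a gene, whereas the authors used UCSC transcripts. The order of the genes therefore also depends on the annotation, which the SD over mice does not cover. Hsd17b4 was the most abundant in HFD mice, at 89.0 ± 6.21 CPM per kilobase (SD, n = 5), followed by Scp2 at 38 ± 3.01 and Abcd2 at 37.9 ± 4.78, which did not differ beyond their spread. Abcd3 (16.6 ± 0.494) and Acaa1a (16.1 ± 1.13) came next, with overlapping ranges of 1 SD, then Crot (11.6 ± 0.711) and Ehhadh (9.40 ± 2.36), whose ranges of 1 SD overlap, and Amacr (3.51 ± 0.316). In IMC-treated mice Hsd17b4 was at 126 ± 6.16 CPM per kilobase (SD, n = 6). Abcd2, at 69.3 ± 6.4, then stood above Scp2, at 56.3 ± 4.31. Abcd3 was at 19.7 ± 2.06 and Acaa1a at 17.0 ± 1.85. Ehhadh, at 14.2 ± 1.82, was above Crot, at 12 ± 0.308, by little more than its own spread, and Amacr stayed last at 4.34 ± 0.417.

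**Figure D2:**
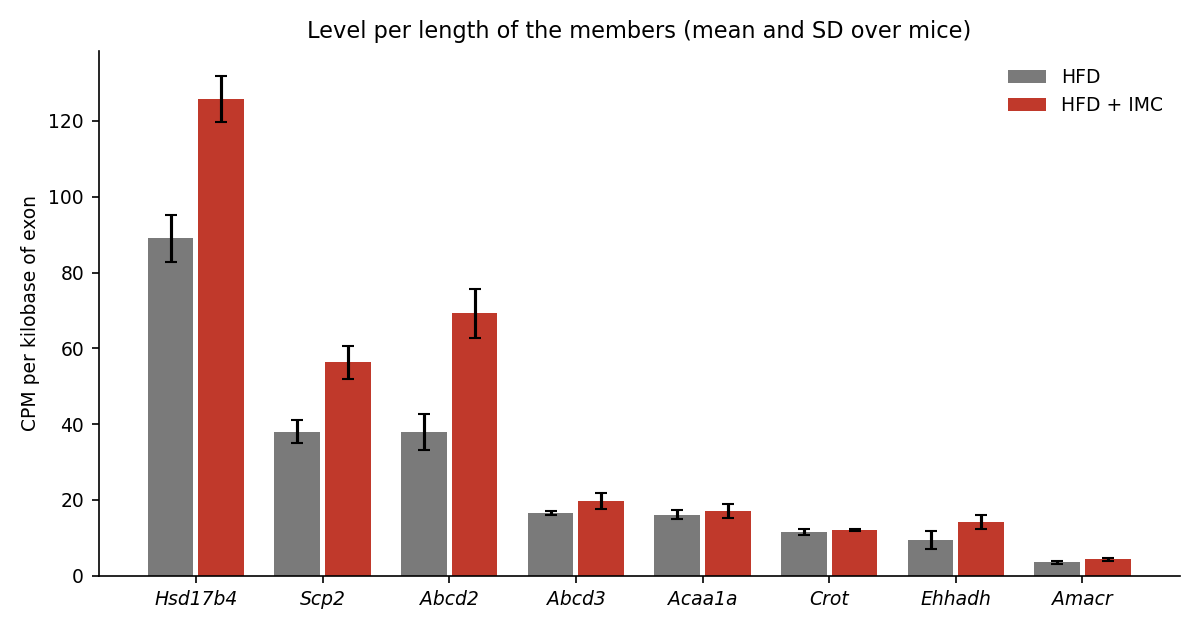
Mean level in CPM per kilobase of exon (y axis, from 0) of the 8 genes in HFD mice (grey, n = 5) and IMC-treated mice (red, n = 6), with error bars of 1 SD over mice. Hsd17b4 is the highest in both groups, and Abcd2 passes Scp2 in IMC-treated mice.

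The members varied to different degrees between mice of the same group. The pooled SD within groups was 0.07 for Crot, above that of only 9.38% of all genes, and 0.08 for Hsd17b4. It was 0.26 for Ehhadh, above that of 83.0% of all genes, against a median of 0.13 over all genes. HFD mouse 2 had the highest value of its group for 6 of the 8 members (Abcd2, Abcd3, Ehhadh, Hsd17b4, Scp2 and Amacr). The mean of 9 adipocyte markers was 9.51 log2 CPM in HFD mouse 2 and 9.52 in HFD mouse 5, against 8.95 to 9.19 in HFD mice 1, 3 and 4. HFD mouse 5 had the lowest Ehhadh, Crot and Abcd3 of its group and the highest Acaa1a. For Abcd2 (7.91), Scp2 (7.13) and Hsd17b4 (8.26 log2 CPM) it came next below HFD mouse 2. Among IMC-treated mice, mice 1 and 6 held the highest value for 4 members each.

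The genes whose profile over the 11 mice was most like that of a member were found by the root mean square difference of log2 CPM after centring each gene. Values were not scaled and both groups were used. A close match therefore needs a similar fold change and a similar spread between mice. For Abcd2 these were Cav1, a caveolar coat protein (0.05), and Palmd (0.0510). For Scp2 they were Cav2 (0.0444) and Ano10 (0.0475), for Hsd17b4 Cd164 (0.0362) and Syap1 (0.0427), and for Abcd3 Mocs2 (0.0473) and Stard7 (0.0477). Amacr was nearest to Acadvl (0.0636), which encodes a mitochondrial acyl-CoA dehydrogenase. Ehhadh had no close match, with Slc22a23 at 0.152 and Pex11a, a peroxisome division factor, at 0.155. Acaa1a was nearest to Terf2ip (0.0379) and Ndufs4 (0.0417), and Crot to Nck1 (0.0355) and Trip4 (0.0376). Among the members, Hsd17b4 and Scp2 were each other's nearest (0.0721), as were Abcd3 and Amacr (0.0762).

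Ratios within a mouse were used to ask whether genes with related roles changed by different amounts, over 6 pairs with two-sided exact permutation tests on 462 splits of the mice, which allow no p below 0.00216. The log2 ratio of Abcd2 to Abcd3 was 1.03 ± 0.15 in HFD mice (SD, n = 5) and 1.67 ± 0.13 in IMC-treated mice (SD, n = 6), with no overlap between the groups. The difference of 0.63 (SE 0.09) means that Abcd2 rose more than Abcd3 (exact p = 0.00216, Benjamini-Hochberg adjusted over the 6 pairs 0.00649). The log2 ratio of the thiolases, Acaa1a to Scp2, was −0.90 ± 0.10 in HFD mice and −1.38 ± 0.13 in IMC-treated mice, again without overlap. It fell by 0.49 (SE 0.07, exact p = 0.00216, adjusted 0.00649). Reads of Acaa1a could have been split with Acaa1b or dropped, and the Scp2 count includes RNA for the short product without thiolase activity. The log2 ratio of the multifunctional enzymes, Ehhadh to Hsd17b4, was −3.46 ± 0.28 and −3.35 ± 0.14. The difference of 0.11 (SE 0.14) was within the spread between mice (exact p = 0.411, adjusted 0.411).

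The other 3 ratios set a member beside another carnitine acyltransferase or a mitochondrial counterpart. Crat encodes carnitine acetyltransferase, which acts on the shortest chains in peroxisomes and mitochondria. The log2 ratio of Crot to Crat was −1.88 ± 0.21 in HFD mice and −2.22 ± 0.07 in IMC-treated mice, a fall of 0.33 (SE 0.10, exact p = 0.00649, adjusted 0.0130) with HFD mouse 5 inside the range of the IMC-treated mice. Ehhadh rose more than Hadha, which encodes the alpha subunit of the mitochondrial trifunctional protein, by 0.49 (SE 0.17, exact p = 0.0195, adjusted 0.0292). The log2 ratio of Ehhadh to Hadha was −3.69 ± 0.35 and −3.21 ± 0.17 with overlap at HFD mouse 2, and this call was lost without any 1 of HFD mice 1, 3, 4 or 5 or IMC mice 1 or 4 (adjusted p up to 0.0643). Acaa1a against Acaa2, the mitochondrial thiolase, differed by −0.13 (SE 0.08, exact p = 0.162, adjusted 0.195). That difference passed the test without IMC mouse 6, the mouse with the highest Acaa1a (−0.20, adjusted p = 0.0159).

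**Figure D3:**
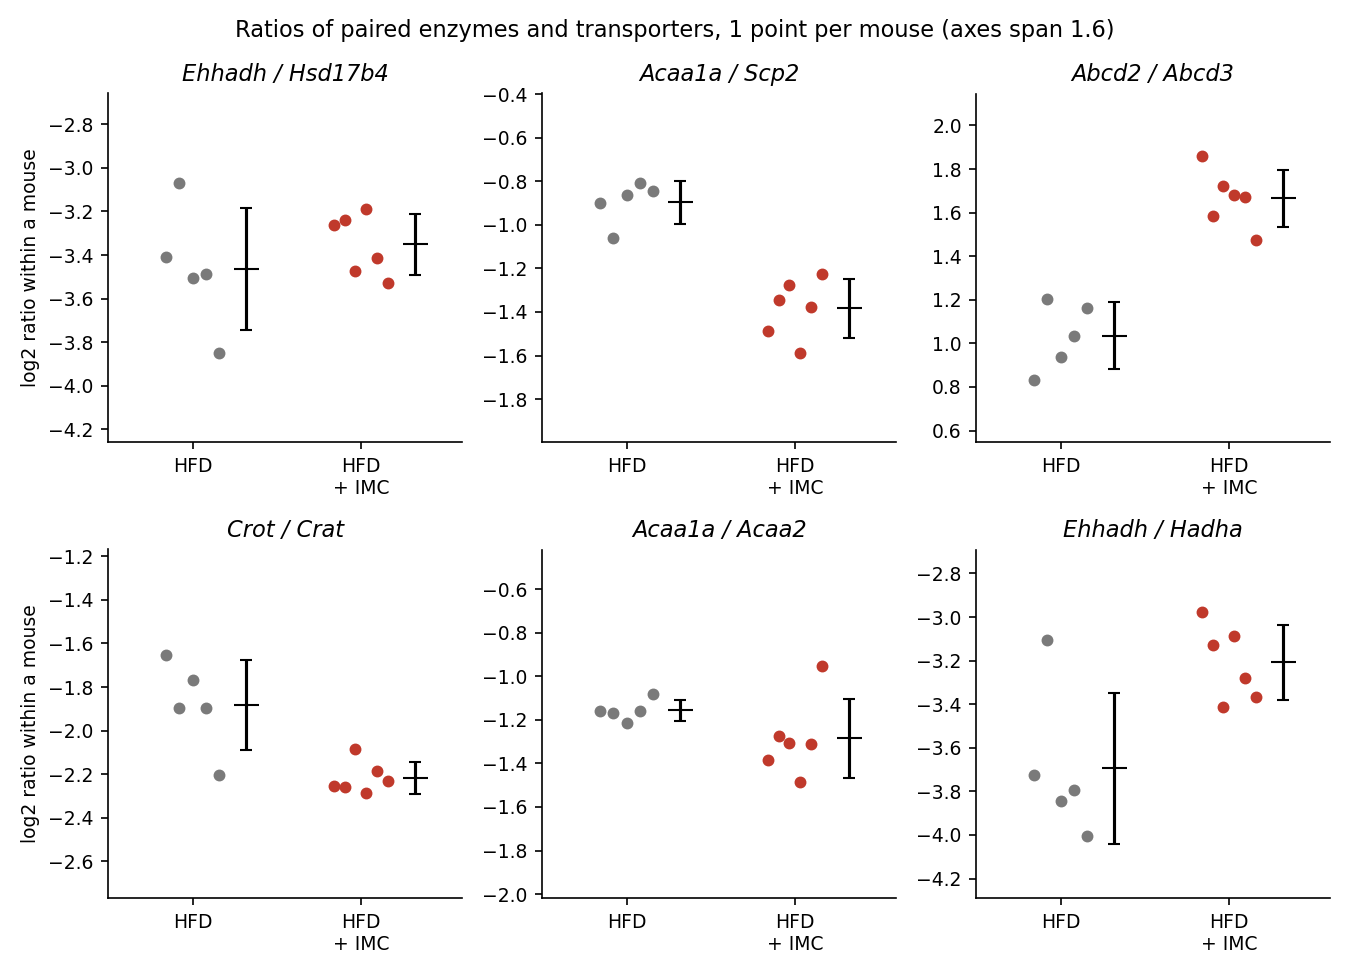
Log2 ratio of 2 genes within each mouse (y axis, log2 CPM of the first gene minus that of the other) for 6 pairs, in HFD mice (grey, n = 5) and IMC-treated mice (red, n = 6), with mean and SD. The groups separate for Abcd2 to Abcd3 (higher with IMC) and Acaa1a to Scp2 (lower with IMC), and each axis spans 1.6.

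Most other genes of peroxisomal beta- and alpha-oxidation moved the same way as the members. Of 23 such genes 18 were in the table, of which 13 were higher in IMC-treated mice, 1 was lower and 4 did not pass the test, with a median log2 fold change of 0.37. For this list and those below, the shares over all genes were 20% higher and 21.0% lower. Acox3, an oxidase of branched chains, was at 6.75 and 6.76 log2 CPM in the 2 groups (log2 fold change 0.01, SE 0.05), and was not called. Hacl1, the lyase of alpha-oxidation, rose by 0.62 (SE 0.10, limma, Benjamini-Hochberg adjusted p = 0.000539), and Crat by 0.39 (SE 0.06). Acot6 (0.69, SE 0.22), an acyl-CoA thioesterase, and Eci3 (0.88, SE 0.30), an enoyl-CoA isomerase, also rose, both near the lower end of detection.

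The peroxins, which build peroxisomes and import their proteins, were all 16 in the table. Of these 11 were higher, 1 was lower and 4 did not pass the test (median log2 fold change 0.33). Pex19, which carries membrane proteins such as the ABC transporters to the peroxisome, rose by 0.58 (SE 0.06), Pex11a by 0.65 (SE 0.09), Pex16 by 0.55 (SE 0.11) and Pex5, the import receptor for most enzymes of the matrix, by 0.36 (SE 0.05). Pex6 was the exception, with a log2 fold change of −0.19 (SE 0.06, limma, Benjamini-Hochberg adjusted p = 0.0251). Of 13 peroxisomal genes with other roles 12 were in the table, of which 9 were higher, 1 was lower and 2 did not pass the test (median 0.39). Lonp2, the protease of the matrix, rose by 0.47 (SE 0.04), Gnpat, the first enzyme of ether lipid synthesis, by 0.54 (SE 0.06), and the membrane protein Pxmp4 by 0.68 (SE 0.08). Gstk1 (0.59), Pxmp2 (0.64) and Ephx2 (0.53) also rose. Far1, which supplies fatty alcohols for ether lipids, was lower (−0.24, SE 0.09, limma, Benjamini-Hochberg adjusted p = 0.0496).

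**Figure D4:**
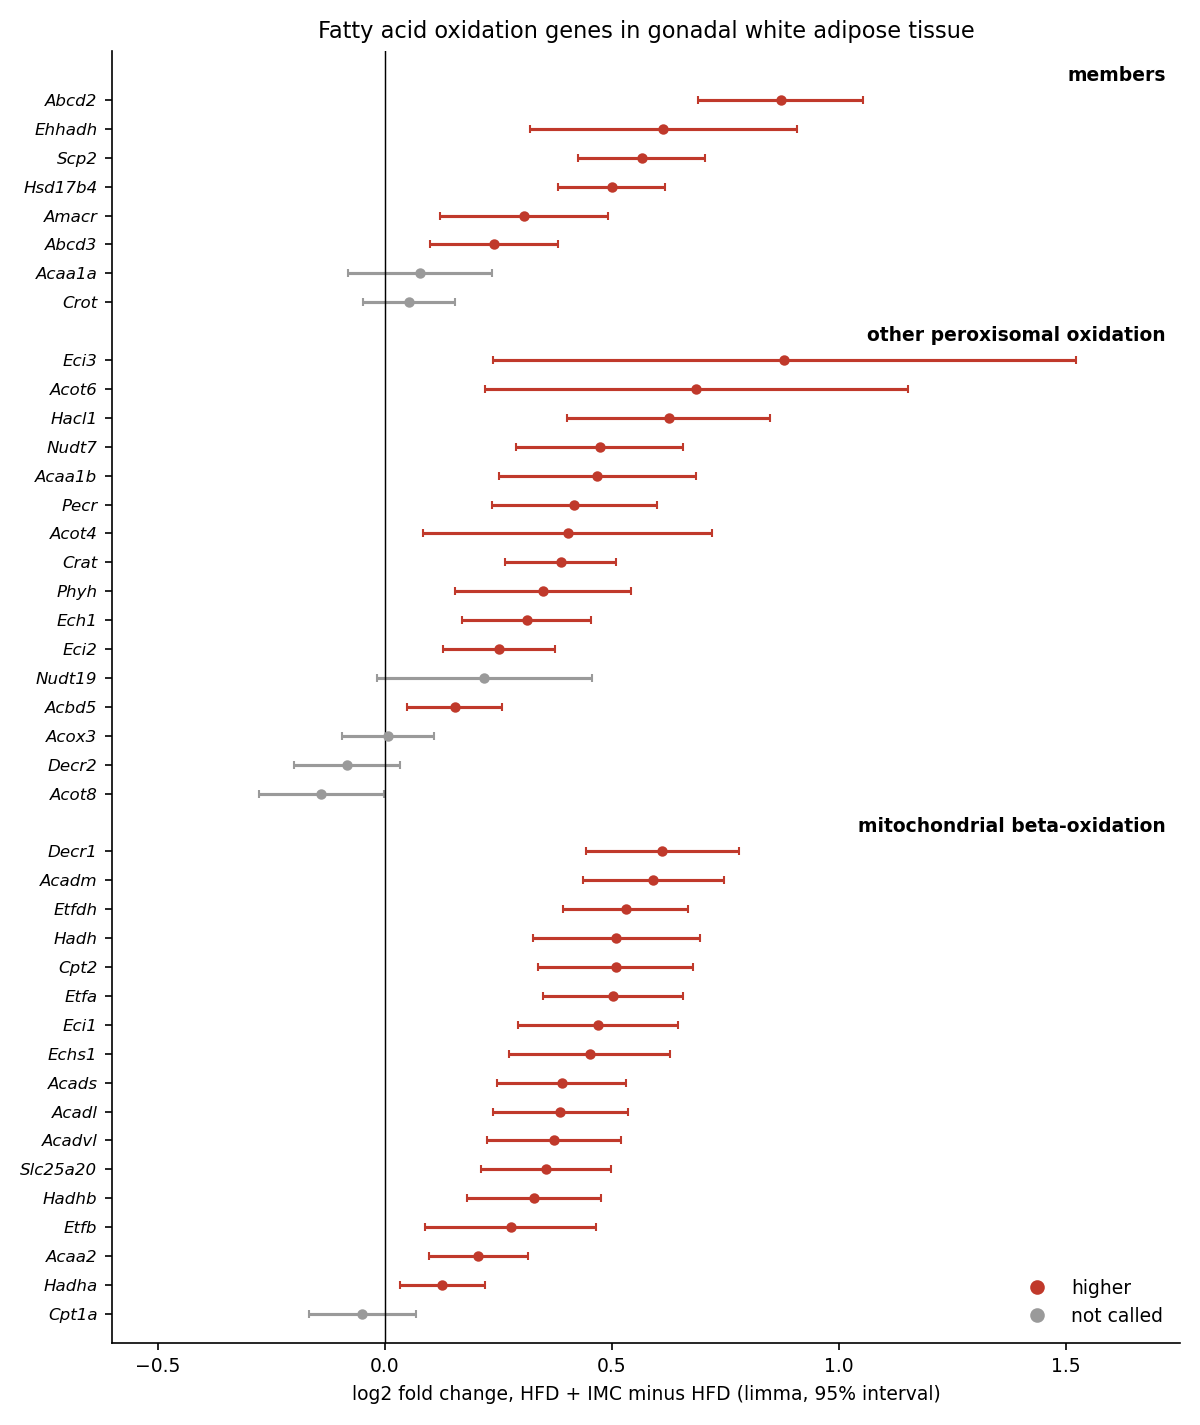
Log2 fold change, IMC-treated minus HFD mice (x axis), with its 95% interval from limma for the 8 members, 16 of the other peroxisomal oxidation genes and 17 mitochondrial beta-oxidation genes. Red genes were called higher (6, 12 and 16 of them) and grey ones did not pass the test.

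Mitochondrial beta-oxidation, which finishes the chains that peroxisomes shorten, showed rises of a like size. Of its 17 genes 16 were higher, none was lower and Cpt1a alone did not pass the test (−0.05, SE 0.05), with a median of 0.39 beside 0.40 for the members. Decr1 (0.61, SE 0.08) and Acadm (0.59, SE 0.07) had the highest fold changes of this list, and Etfdh (0.53), Hadh (0.51), Cpt2 (0.51) and Etfa (0.50) followed. Hadha (0.13) and Acaa2 (0.21) had the smallest among those that rose.

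PPAR receptors and their co-regulators had 4 of 7 listed genes higher, 1 lower and 2 not called (median 0.35). Pparg, the receptor that drives fat cell differentiation, rose by 0.70 (SE 0.11), Ppara, the receptor known for peroxisomal target genes in liver, by 0.99 (SE 0.19), the co-repressor Nrip1 by 0.70 (SE 0.13) and Rxra by 0.35 (SE 0.06), whereas Rxrb fell by 0.13 (SE 0.04, limma, Benjamini-Hochberg adjusted p = 0.0280). Of 14 PPAR targets outside peroxisomes 10 were in the table, of which 3 rose, none fell and 7 did not pass the test (median 0.23). This count is not far from the 20% of all genes called higher. Those that rose were Ucp3 (0.87, SE 0.11), Angptl4 (0.33, SE 0.06) and Fgf21 (0.92, SE 0.25). Fgf21 was near the lower end of detection, with 12 to 76 reads per library. Plin2, a lipid droplet coat protein in this list, was at −0.24 (limma, Benjamini-Hochberg adjusted p = 0.0539), and Pdk4 at 0.32 (adjusted p = 0.0940).

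Markers of cell types also differed between the groups, some higher and some lower in IMC-treated mice. All 9 adipocyte markers (Adipoq, Cidec, Fabp4, Lep, Lipe, Plin1, Pnpla2, Retn and Slc2a4) were in the table, and all 9 were higher in IMC-treated mice, with a median log2 fold change of 0.87. Their summed level was 9650 to 13759 CPM in HFD mice and 18974 to 23116 CPM in IMC-treated mice. Of 9 macrophage markers 8 were lower and none was higher (median −0.61), with summed levels of 11306 to 15485 CPM and 5984 to 9802 CPM. Of 5 mast cell markers all were lower (median −1.42), and of 5 fibroblast markers 2 were lower. Endothelium had 1 of 4 markers higher, mesothelium none of 3 listed called, and the brown adipocyte list 2 of 3 listed higher, while its defining gene Ucp1 was not in the table. Over all genes 20% were called higher and 21.0% lower, so the count for endothelium is near the share of all genes. Of 11 skeletal muscle markers 3 were in the table and all 3 were higher, with summed levels of 16.3 to 25.3 CPM and 38.5 to 68.5 CPM, while Ckm and Mb were not in the table. Of 4 hepatocyte markers 2 were higher, with summed levels of 99.7 to 111 CPM and 99.4 to 135 CPM. None of the lymphocyte or epididymis and testis markers was in the table. The part of these cell types in the levels of the members was not tested.

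The size of each member's difference was also set against that of the mean log2 CPM of the 9 adipocyte markers in the same mouse, a comparison chosen after the values were seen. Abcd2 was at −1.42 ± 0.11 relative to them in HFD mice (SD, n = 5) and −1.47 ± 0.07 in IMC-treated mice (SD, n = 6), a difference of −0.05 (SE 0.06, two-sided exact permutation test p = 0.413, adjusted over 8 members 0.413). Crot was lower relative to the markers by 0.87 (log2 difference −0.87, SE 0.16), Acaa1a by 0.84 (−0.84, SE 0.10), Abcd3 by 0.68 (−0.68, SE 0.12) and Amacr by 0.61 (−0.61, SE 0.11). For these 4 genes all IMC-treated mice lay below all HFD mice (exact p = 0.00216 each, adjusted 0.00433). The marker mean itself was higher by 0.92 in IMC-treated mice, so most genes lay lower on this scale. Over all 12787 genes the median difference was −0.94, and 84.1% of genes had every IMC-treated mouse below every HFD mouse, against 4 of the 8 members. The values of Crot and Acaa1a were thus near that of the median gene. Hsd17b4 (−0.42, SE 0.10) and Scp2 (−0.35, SE 0.09) were also lower on this scale, with overlap between the groups (exact p = 0.00649 each, adjusted 0.00866). For Ehhadh the difference was −0.30 (SE 0.19, exact p = 0.130, adjusted 0.148), and it was −0.47 with an adjusted exact p of 0.0218 without HFD mouse 5. The rise of Hsd17b4, Scp2, Abcd3 and Amacr was therefore smaller than that of the mean of the 9 markers. The log2 fold change of Abcd2, 0.87, lay within the range of the single markers, from 0.64 for Pnpla2 to 1.26 for Slc2a4.

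**Figure D5:**
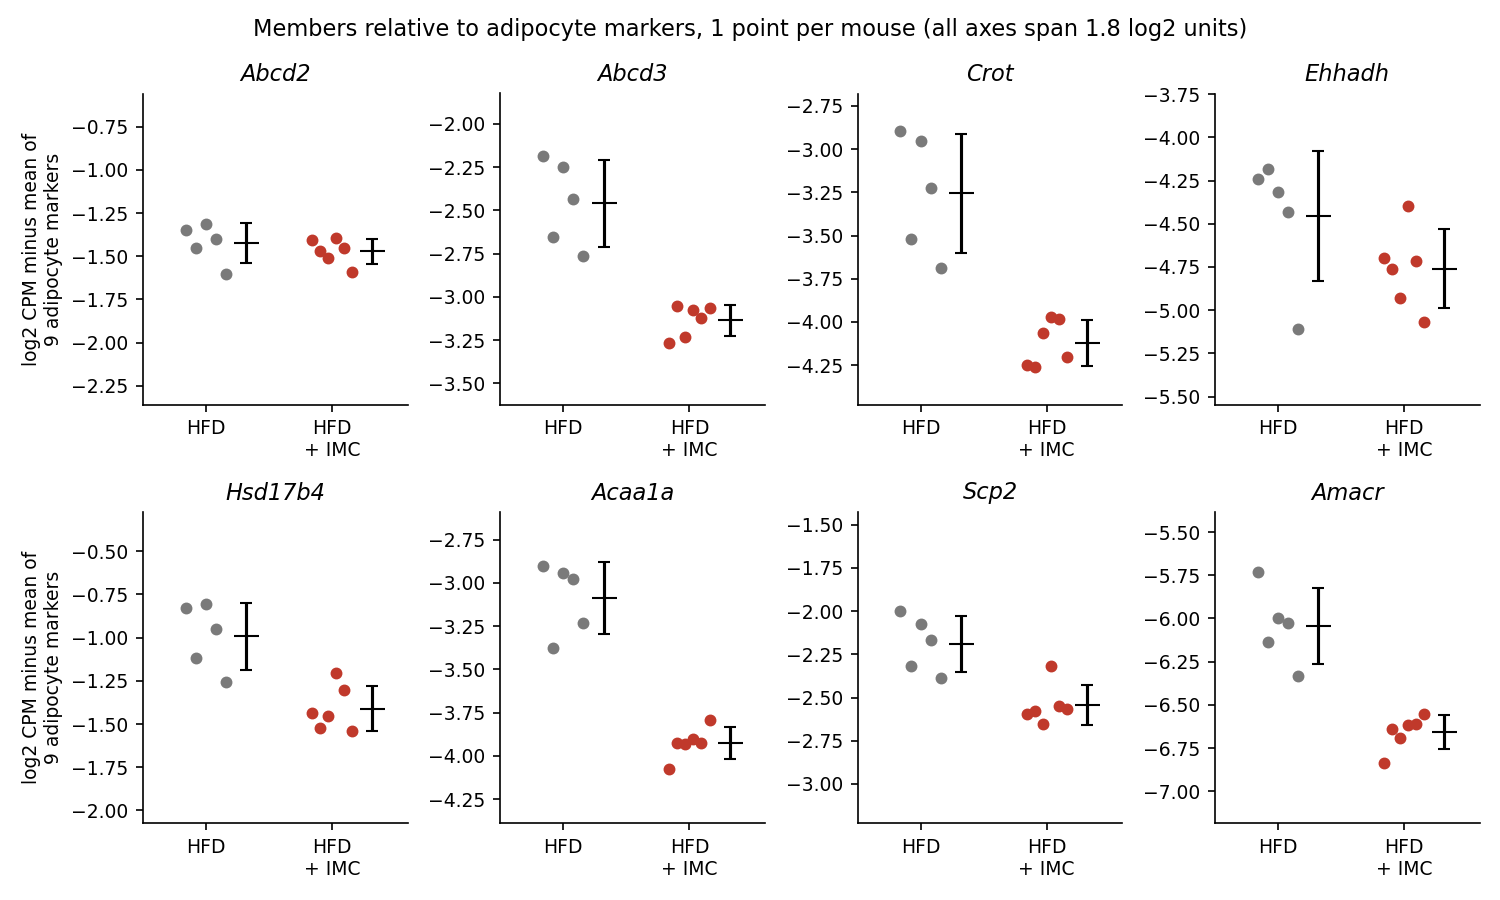
Log2 CPM of each member minus the mean log2 CPM of 9 adipocyte markers in the same mouse (y axis) in HFD mice (grey, n = 5) and IMC-treated mice (red, n = 6), with mean and SD. All axes span 1.8 log2 units, and Abcd2 overlaps between the groups while Crot, Acaa1a, Abcd3 and Amacr are lower in every IMC-treated mouse.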

How the data were processed

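RNA sequencing of gonadal WAT was analysed in 11 mice, 5 on the HFD and 6 on the HFD with IMC, grouped by their labels. Per the labels and the methods of the study, the authors trimmed reads with Trim Galore, checked them with FastQC, mapped them to mm10 and its UCSC transcripts with STAR, counted reads per gene and removed transcripts with low counts. The authors deposited log2 CPM for 12787 genes, scaled by the upper quartile with edgeR. The same table holds the authors' own comparison, namely their log2 fold change and mean log2 CPM, a likelihood-ratio score, and the p-value and FDR as deposited, and these columns were not used. Replicates are separate mice, with 1 library each. The study housed mice in shared cages, and the labels do not name the cage of each mouse. The tests treat the mice as independent, and an effect of cage was not tested. The mouse numbers only name the mice.

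The groups were compared with limma 3.58.1 in R 4.3.3 (lmFit and eBayes with trend) over all 12787 genes without a further filter, with Benjamini-Hochberg adjustment and a threshold of 0.05. Ratios within a mouse were tested by exact permutation, two-sided. Low values step by single reads, so reads were recovered (100% within 0.1 of a whole number), and 1 read was worth 0.0403 to 0.0450 CPM. The depth behind a value covers counting error only. Gene coordinates and exon lengths came from GENCODE M21 (GRCm38, the build of mm10) and promoters from RefSeq. The limma, permutation and read recovery steps were tested on simulated data. Alternatives were a filter on low values, limma without a trend or robust, voom, a constant of 2 reads, total-count and median-of-ratios scaling, and leaving out each mouse.

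The 8 members were named in full. Of each other pathway list, the genes named were the 3 with the smallest p, those called against the direction of most called genes, and those with an absolute log2 fold change over 0.5, with the genes of the 6 pairs and the 2 nearest profiles of each member. Acaa1b, Acox3, Cpt1a, Plin2, Pdk4, Myd88 and Podn were added after their values were seen. Some genes that meet the rule are not reported here. The members and lists were chosen with earlier results of these data known.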

Additional observations from a re-analysis of the deposited data

Results flagged for a closer look

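In groups of 5 or 6 mice, the gap of the highest or lowest mouse to its neighbour was compared with the range of the group by Dixon's test at the 95% level. Over 96 groups of members, related genes and pairs, 4 passed the critical value, and 4.8 would pass by chance at 1 in 20. Abcd3 was highest in HFD mouse 2, at 6.85 log2 CPM, with the next HFD mouse at 6.76. Pex6 was lowest in HFD mouse 4, at 5.70 log2 CPM, with the next at 5.83. Fgf21 was lowest in HFD mouse 1, at −0.86 log2 CPM, with the next at −0.14. Hadha was highest in IMC mouse 4, at 8.66 log2 CPM, with the next at 8.60.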

How the results depend on the processing

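The differences of the 8 members and 6 pairs kept their direction and side of the threshold in all 74 values under other filters, variance models, added constants and scalings, and in 147 of 154 values without 1 mouse. Counts of genes called higher moved by at most 1.5 times. Over all these settings they were 9 to 13 for other peroxisomal oxidation genes, 10 to 12 for peroxins, 8 to 9 for other peroxisomal genes, 2 to 4 for PPAR targets outside peroxisomes and 14 to 16 for mitochondrial beta-oxidation, and stayed at 4 for PPAR receptors and co-regulators. The number of members called higher was 6 in every setting. Without 1 mouse, the difference between Ehhadh and Hadha ranged from 0.41 to 0.63 and lost its call for 6 of the 11 mice, and that between Acaa1a and Acaa2 ranged from −0.20 to −0.088 and gained a call for 1. With 1 mouse left out, the log2 fold change of Abcd2 ranged from 0.82 to 0.93, Hsd17b4 from 0.47 to 0.54, Scp2 from 0.54 to 0.60, Ehhadh from 0.52 to 0.75, Amacr from 0.26 to 0.35 and Abcd3 from 0.20 to 0.27 (limma, highest Benjamini-Hochberg adjusted p = 0.0378, for Amacr). The count of all genes called ranged from 4299 to 5125 without 1 mouse and from 5053 to 5464 under other settings. Total-count scaling moved the median of all genes by −0.03 and the share of calls that were higher from 48.8% to 40.3%, and median-of-ratios scaling to 51.1%. No paired analysis was possible because the labels give the groups no shared replicate numbers. Few reads lay behind Acot6 (24 to 68 per library), Eci3 (12 to 63) and Fgf21 (12 to 76). Ppara (99 to 355), Pxmp2 (121 to 284), Pex11a (182 to 361) and Amacr (191 to 319) rest on more reads, but still few. Reads of Acaa1a could have been split with a near-identical copy or dropped.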
